A study of Mus musculus with 6 samples.

Results

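The genes described here are 38 members of the integrated stress response and the unfolded protein response, the programs by which a cell answers a shortage of amino acids and an excess of unfolded protein in the endoplasmic reticulum (ER). They were taken by symbol from a list drawn up with earlier results of these data known. All 38 were found once each among the 34745 genes of the deposited table. Expression was measured by RNA-seq in NOR-10, an established line of fibroblasts from mouse skeletal muscle. The control group was given PBS (3 libraries), and the other group 20 mg/mL D-gal (D-galactose, a sugar used to induce cellular senescence) for 3 days (3 libraries), so the data cover 1 line at 1 dose and 1 time. Total counts lay between 13759108 and 20830349 per library, lower in every D-gal library than in every control library. The labels do not say whether the replicates were separate cultures, so the p-values measure the spread between these libraries, which may be technical.

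Protein that fails to fold in the ER is sensed by 3 membrane proteins, the nuclease IRE1 (Ern1), the kinase PERK (Eif2ak3) and the transcription factor precursor ATF6. IRE1 splices the messenger RNA of Xbp1 so that an active transcription factor is made, and ATF6 is cut in the Golgi to release one. XBP1 and ATF6 raise ER chaperones, folding enzymes and the machinery of ER-associated degradation (ERAD), which returns misfolded protein to the cytosol. PERK and the amino acid sensor GCN2 (Eif2ak4) phosphorylate the translation factor eIF2, which slows most translation but favours that of Atf4. ATF4 then raises stress regulators such as Ddit3 (CHOP) and enzymes of amino acid and one-carbon metabolism. Gene counts report messenger RNA, so neither the splicing of Xbp1 nor the translation of Atf4 can be seen in them. In these bulk libraries a smaller number of expressing cells and less RNA per cell cannot be told apart.

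The promoters of some members hold the binding elements of these factors, and the sequences are shown because the ATF4 targets and the XBP1 and ATF6 targets are compared below, although many genes of either list carry no match. Promoters were taken from RefSeq on GRCm38.p6 as the 250 bases before and 50 bases after the annotated start, and 34 of the 38 members were matched by symbol. Both strands were searched for 4 motifs. The C/EBP-ATF response element (CARE), to which ATF4 binds, was spelled TGATGNAA. The ER stress response element (ERSE), to which ATF6 and XBP1 bind, was spelled as CCAAT and CCACG with 9 bases between them. ERSE-II was spelled ATTGG and CCACG with 1 base between them and shares its last 5 letters with ERSE, and the unfolded protein response element was spelled TGACGTGG. A CARE was found in 4 of the 12 ATF4 targets, 1 of the 15 XBP1 and ATF6 targets with a promoter and 0 of the other 7 members, against 3.97% of all 32851 promoters. An ERSE was found in 8 of the 15 XBP1 and ATF6 targets and in no other member, against 0.119% of all promoters. ERSE-II was found in Herpud1, which makes it 1 of the 15, against 0.0365% of all promoters, and the unfolded protein response element in none of the 34 members, against 0.676%. The members were listed as targets from general knowledge that includes such elements, so these shares describe the list and are no independent result.

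Each CARE is shown in 30 bases on the strand where it reads as spelled, with the element in capitals. Those of Chac1, Asns, Nupr1 and Herpud1 lie before the start and that of Trib3 lies 14 to 21 bases after it.
Trib3, chr2:152344028-152344057, plus strand: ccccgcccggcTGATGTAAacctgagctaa
Chac1, chr2:119351038-119351067, minus strand: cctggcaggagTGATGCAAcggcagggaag
Asns, chr6:7693214-7693243, minus strand: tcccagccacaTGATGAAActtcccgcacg
Nupr1, chr7:126625562-126625591, plus strand: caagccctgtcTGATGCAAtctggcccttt
Herpud1, chr8:94386306-94386335, minus strand: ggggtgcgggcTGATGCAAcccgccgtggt

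The ERSE of each XBP1 and ATF6 target is shown in the same way, with both parts and the bases between them in capitals, followed by the ERSE-II of Herpud1. Hsp90b1 has 2 of them.
Hspa5, chr2:34772020-34772049, plus strand: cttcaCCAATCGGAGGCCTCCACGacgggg
Hsp90b1, chr10:86705632-86705661, minus strand: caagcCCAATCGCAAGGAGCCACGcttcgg
Hsp90b1, chr10:86705527-86705556, plus strand: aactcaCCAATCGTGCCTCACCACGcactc
Calr, chr8:84847069-84847098, plus strand: tatgggCCAATGAGGGTCGACCACGcgttg
Canx, chr11:50325794-50325823, minus strand: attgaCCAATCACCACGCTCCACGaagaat
Pdia6, chr12:17266486-17266515, plus strand: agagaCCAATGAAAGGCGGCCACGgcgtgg
Dnajc3, chr14:118937822-118937851, plus strand: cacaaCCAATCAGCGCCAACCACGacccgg
Creld2, chr15:88819515-88819544, minus strand: tgtggaCCAATTGAGGCTCGCCACGagaag
Syvn1, chr19:6046527-6046556, plus strand: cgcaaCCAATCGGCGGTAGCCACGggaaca
Herpud1, chr8:94386368-94386397, plus strand: cgggcgctgATTGGGCCACGttggacactg

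The wider promoter of Hspa5, which encodes the ER chaperone BiP, is given because its level is the usual readout of ER stress. The 250 bases before the start lie at chr2:34771840-34772089 on the plus strand, with the CCAAT and CCACG of its exact ERSE in capitals.
Hspa5: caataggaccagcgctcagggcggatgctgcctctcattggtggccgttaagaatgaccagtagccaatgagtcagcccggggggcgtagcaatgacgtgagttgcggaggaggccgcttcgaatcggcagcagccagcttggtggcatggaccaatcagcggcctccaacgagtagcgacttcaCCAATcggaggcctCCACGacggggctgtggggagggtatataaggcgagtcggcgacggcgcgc

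Fibroblast markers were abundant in all libraries, with a summed level of 7075 to 7241 CPM (counts divided by the library total, on the usual scale) in the control group and 4755 to 4876 in the D-gal group, and 8 of the 9 markers passed the filter on low counts. Of the 9 skeletal muscle markers, Myod1, Myf5 and Pax7 were at 0 in every library, and the sum was 7.60 to 7.82 CPM in the control group and 6.06 to 6.32 in the D-gal group. The summed markers of endothelial cells, leukocytes, epithelial cells and adipocytes reached at most 9.87 CPM in any library. The fibroblast, skeletal muscle and epithelial sums were lower in every D-gal library than in every control library, the last from 6.91 to 8.36 CPM in the control group to 1.78 to 2.63 in the D-gal group, and their part in the results below was not tested. No library was a copy of another, since the chi-square per degree of freedom between replicates was 5.998 to 9.42.

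More of the stress response genes fell than rose with D-gal, and no member passed both thresholds of the study. Expression was compared with edgeR's quasi-likelihood test, adjusted by the Benjamini-Hochberg method over the 13407 genes that passed the filter on low counts, among them all 38 members. At those thresholds, which ask for an adjusted p under 0.05 together with an absolute log2 fold change of 1 or more, 0 of the 38 members were called, where 4.21% of all genes tested were. DESeq2 also called 0, and 21 members had an unadjusted p under 0.05 in edgeR. At the adjusted p alone 16 members (42.1%) changed, 4 higher and 12 lower, where 34.8% of all genes tested were called, 16.9% higher and 17.8% lower. The 3 D-gal libraries lay on one side of the 3 control libraries in 22 members, where this held for 49.1% of all genes tested. The median log2 fold change of the members was -0.06, and that of all genes tested was 0.0036. An exact permutation test of a single gene cannot give a p below 0.1 with 3 libraries against 3.

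**Figure D1:**
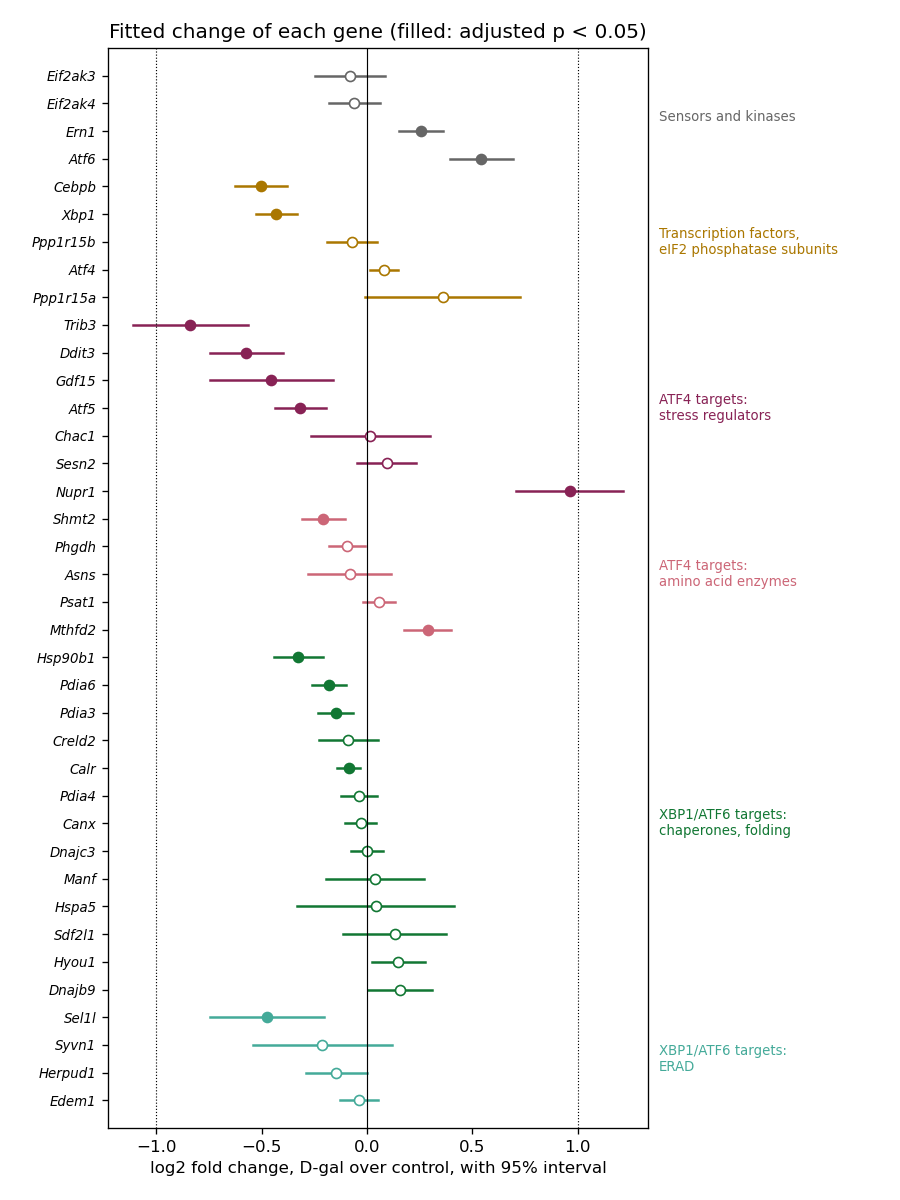
Log2 fold change of D-gal over control for each of the 38 genes, with its 95% interval from edgeR, grouped by role; filled points have an adjusted p under 0.05 and dotted lines mark a log2 fold change of 1 in either direction. The values run from -0.84 (Trib3) to 0.96 (Nupr1), and the points of the chaperones and folding enzymes lie between -0.33 and 0.16.

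Of the 22 members that did not pass the threshold, 20 had a 95% interval of the log2 fold change that stayed between -0.5 and 0.5. The exceptions were Syvn1 (interval -0.54 to 0.12) and Ppp1r15a (-0.0090 to 0.72). The intervals of the 22 members rest on counts from 122 (Chac1, in a D-gal library) to 18800 (Canx, in a control library). Over all members, with those past the threshold included, the counts per library ran from 86 to 41427. By the annotation 14 members overlap another gene, and 8 share over 5% of their sequence words of 31 bases with other genes, which is given below beside each of them.

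The stress regulators among the ATF4 targets included the 3 members with the largest changes, Nupr1, Trib3 and Ddit3. Of the 7, 1 rose (Nupr1), 4 fell (Trib3, Ddit3, Gdf15 and Atf5) and 2 did not pass the test (Chac1 and Sesn2), and their median log2 fold change was -0.32. The share called was 71.4%, where 34.8% of all genes tested were called. Nupr1 (ENSMUSG00000030717, GRCm38 chromosome 7, 126623249 to 126630861) encodes a small chromatin-associated stress protein. Its normalized counts read 317, 412 and 313 with PBS against 643, 685 and 706 with D-gal. Every D-gal library was above every control library, and control replicate 2 was the highest of its group. The means were 347 ± 56.0 and 678 ± 32.1 (SD, n = 3), and the fitted log2 fold change was 0.96 (SE, the standard error, 0.11, edgeR adjusted p = 0.0004245). Without control replicate 2 it was 1.11, which passes the study's threshold. The promoter of Nupr1 holds the CARE shown above.

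Trib3 (ENSMUSG00000032715, chromosome 2, 152337422 to 152344032) encodes a pseudokinase that is induced by ATF4 and CHOP and restrains both. Its normalized counts read 217, 219 and 188 with PBS against 127, 118 and 104 with D-gal, without overlap. The means were 208 ± 17.3 and 116 ± 11.7 (SD, n = 3), and Trib3 fell by 0.84 on the log2 scale (SE 0.12, edgeR adjusted p = 0.00116). Its promoter also holds a CARE, which lies after the start, where that of Nupr1 lies before it. Whether either element acts in these cells was not tested.

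Ddit3 (ENSMUSG00000025408, chromosome 10, 127290774 to 127296288) encodes CHOP, the transcription factor that links lasting ER stress to cell death. Its normalized counts read 818, 796 and 854 with PBS against 606, 503 and 551 with D-gal. All D-gal values were below all control values. The means were 823 ± 29.3 and 553 ± 51.4 (SD, n = 3), and the log2 fold change was -0.57 (SE 0.08, edgeR adjusted p = 0.0008255). Ddit3 overlaps Mars, Gm4189 and another annotated entry of its own symbol, and it shares 6.78% of its sequence words. Whether counting used the strand is not stated, so its value is uncertain to that extent.

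**Figure D2:**
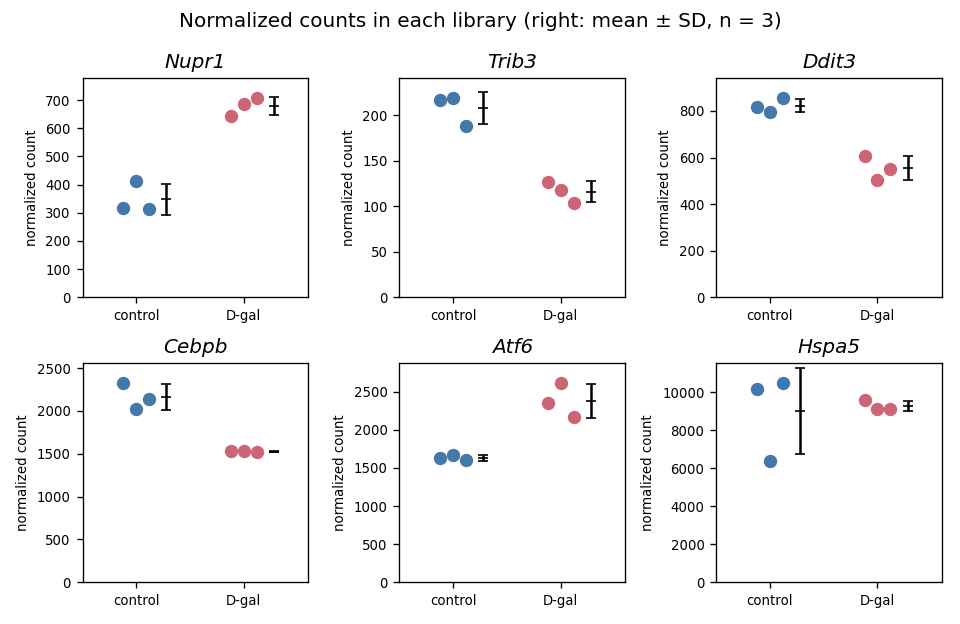
Normalized counts of Nupr1, Trib3, Ddit3, Cebpb, Atf6 and Hspa5 in each of the 3 control and 3 D-gal libraries (points), with mean and SD to the right of each group (n = 3) and axes from 0. Groups do not overlap for the first 5 genes, while for Hspa5 the 3 D-gal libraries lie between control replicate 2 at 6397 and the other control libraries at 10189 and 10467.

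The other stress regulators changed less. Gdf15, a secreted growth differentiation factor released by stressed cells, had 250 to 337 normalized counts in the control group and 200 to 214 in the D-gal group (log2 fold change -0.45, standard error 0.13, edgeR adjusted p = 0.0260). Its call was lost without any 1 of control replicate 1 and D-gal replicates 1, 2 and 3, with adjusted p-values of 0.0528 to 0.0720. Atf5, a transcription factor related to ATF4, fell by 0.32 (SE 0.05, edgeR adjusted p = 0.00243) and overlaps 2 genes on the other strand. Chac1, a glutathione-degrading enzyme that is among the most specific ATF4 targets, had 134 to 167 normalized counts in the control group and 147 to 166 in the D-gal group. Its log2 fold change was 0.02, with an interval of -0.27 to 0.30. Sesn2, a leucine sensor that restrains mTORC1, had a log2 fold change of 0.09 (interval -0.05 to 0.23).

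The amino acid and one-carbon enzymes stayed close to the control level. Of the 5 enzymes, 1 rose, 1 fell and 3 did not pass the test, with a median log2 fold change of -0.08. That is 40% called, near the 34.8% of all genes tested. Mthfd2, the mitochondrial methylenetetrahydrofolate dehydrogenase, rose by 0.29 on the log2 scale (SE 0.05, edgeR adjusted p = 0.00283), from 1392 to 1430 normalized counts in the control group to 1622 to 1817 in the D-gal group. Shmt2, which supplies that pathway from serine, fell by 0.21 (SE 0.04, edgeR adjusted p = 0.00790), so these neighbours in mitochondrial one-carbon metabolism moved apart. Shmt2 overlaps Ndufa4l2 on the opposite strand. Asns, asparagine synthetase, had a log2 fold change of -0.08 (interval -0.28 to 0.11). Psat1 and Phgdh, both of the serine synthesis pathway, had values of 0.06 (interval -0.02 to 0.13) and -0.10 (interval -0.18 to -0.01, adjusted p = 0.0769). Phgdh shares 56.3% of its sequence words with other genes, most of them with Gm7901, so its counts are uncertain.

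Among the XBP1 and ATF6 targets no gene rose at the adjusted p, where 16.9% of all genes tested rose and 17.8% fell. Of the 13 chaperones and folding enzymes, 0 were higher and 4 lower at the adjusted p, and 9 did not pass it, with a median log2 fold change of -0.03. Hsp90b1 (GRP94), the ER member of the HSP90 family, had 30678 to 33804 normalized counts in the control group and 25098 to 27755 in the D-gal group. It fell by 0.33 on the log2 scale (SE 0.05, edgeR adjusted p = 0.00174), and it overlaps genes on both strands and shares 12.3% of its sequence words. The protein disulfide isomerases Pdia6 and Pdia3 fell by 0.18 (adjusted p = 0.00541) and 0.15 (adjusted p = 0.0152), and they overlap Atp6v1c2 and Catsper2 on the opposite strand. Calr, calreticulin, a lectin chaperone of glycoproteins, fell by 0.09 (SE 0.02, edgeR adjusted p = 0.0238). The calls of Pdia3 and Calr were lost without single libraries, Pdia3 without control replicate 3 (adjusted p = 0.0510) and Calr without control replicate 2 or 3 or D-gal replicate 2 or 3 (0.0583 to 0.0772).

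Hspa5 did not pass the test, and its value turned on a single library. Its normalized counts read 10189, 6397 and 10467 with PBS against 9587, 9138 and 9095 with D-gal. Control replicate 2 was the lowest of the 6 libraries by far, and the control libraries spanned 1.64-fold, against 1.05-fold in the D-gal group. The log2 fold change was 0.04 with an interval of -0.33 to 0.41 (adjusted p = 0.873), and without control replicate 2 it was -0.15 (adjusted p = 0.0202). Control replicate 2 was also the lowest control library by a wide margin in Syvn1, another member with an ERSE, with 1011 normalized counts against 1343 and 1314. Canx and Creld2, which have an ERSE too, also had their lowest control value there (15340 against 16026 and 16474, and 848 against 909 and 945). In Hsp90b1, Calr and Pdia6, which have an ERSE, it was the highest control library, with 33804, 23770 and 5799 normalized counts. In Dnajc3 it was the middle one (2862). Among members without an ERSE match it was the lowest control in some, such as Ddit3 (796 against 818 and 854) and Atf4 (5425 against 5578 and 5462). In others it was the highest, such as Nupr1 (412 against 317 and 313). A link between this library and the element was not tested.

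The remaining folding genes did not pass the test, though the intervals of Dnajb9 and Hyou1 lay above 0. Dnajb9 (ERdj4), a co-chaperone of BiP and a marker of spliced Xbp1, had a log2 fold change of 0.16 (interval 0.0053 to 0.31, edgeR adjusted p = 0.102). Its 357 to 382 normalized counts in the control group and 406 to 425 in the D-gal group did not overlap, and it overlaps Mir5627 and shares 10.8% of its sequence words. Hyou1, the ER chaperone GRP170, had 0.15 (interval 0.02 to 0.27, adjusted p = 0.0673), where the lowest D-gal library (2551 normalized counts) barely cleared the highest control library (2548), and without D-gal replicate 1 its adjusted p was 0.0255. Sdf2l1, a component of the BiP cycle, had 0.13 (interval -0.12 to 0.38) and Manf, a secreted neurotrophic factor of the ER, 0.04 (interval -0.19 to 0.27, with 3 overlapping genes and 7.25% of its sequence words shared). Dnajc3 (p58IPK) had a log2 fold change of -0.0012 with an interval of -0.08 to 0.07, the closest to 0 of the 38 members. Pdia4, Canx (calnexin, the membrane partner of calreticulin) and Creld2 had values of -0.04, -0.03 and -0.09, all with adjusted p-values of 0.294 to 0.498, and Pdia4 overlaps Mir704.

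Of the 4 ERAD genes, 1 fell and 3 did not pass the test, so 25% were called, beside 34.8% of all genes tested. Sel1l, the scaffold of the ERAD ubiquitin ligase, had 1929, 2470 and 2678 normalized counts with PBS against 1531, 1767 and 1794 with D-gal. The groups did not overlap, though control replicate 1 stood closer to the D-gal libraries than to the other controls. The log2 fold change was -0.47 (SE 0.12, edgeR adjusted p = 0.0157), and the adjusted p was 0.0533 without control replicate 2 and 0.0526 without D-gal replicate 1. Syvn1, the ligase itself (HRD1), which overlaps Mrpl49, had a log2 fold change of -0.21 (edgeR adjusted p = 0.291) and of -0.33 without control replicate 2. Herpud1, which brings the complex together, had -0.15 (edgeR adjusted p = 0.109). Edem1, which acts on misfolded glycoproteins, had -0.04 (edgeR adjusted p = 0.477). Without D-gal replicate 1 Herpud1 had a value of -0.21 (adjusted p = 0.0241).

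**Figure D3:**
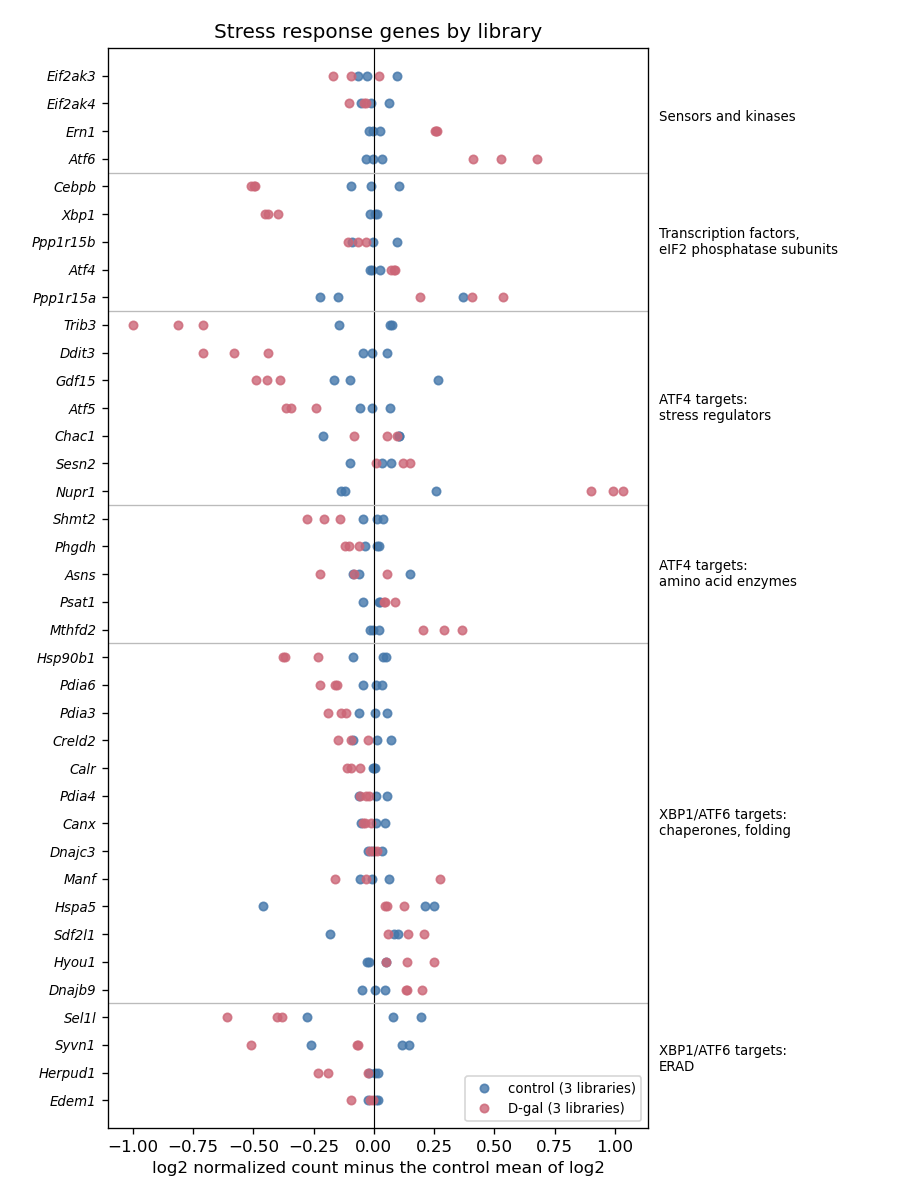
Log2 normalized count of each gene in each of the 6 libraries, minus the mean of the 3 control libraries, grouped by role. The 3 D-gal libraries lie apart from the controls on the right for Nupr1 and Atf6 and on the left for Trib3, Ddit3, Cebpb and Xbp1, and the low control point of Hspa5 is replicate 2.

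Among the 4 sensors and kinases, 2 rose at the adjusted p, where 16.9% of all genes tested rose. So few genes say little about the role. Atf6 (ENSMUSG00000026663, chromosome 1, 170704674 to 170867771) had 1632, 1673 and 1599 normalized counts with PBS against 2358, 2610 and 2170 with D-gal. The lowest D-gal library was well above the highest control library. The means were 1635 ± 37.1 and 2379 ± 221 (SD, n = 3), a rise of 45.6% and a log2 fold change of 0.54 (SE 0.06, edgeR adjusted p = 0.000502). Ern1, which encodes IRE1, had 765 to 790 normalized counts in the control group and 925 to 929 in the D-gal group, which gives a log2 fold change of 0.26 (SE 0.05, edgeR adjusted p = 0.00348). The kinases Eif2ak3 (PERK) and Eif2ak4 (GCN2) had values of -0.08 (interval -0.25 to 0.09) and -0.06 (interval -0.18 to 0.06). Eif2ak3 overlaps Gm43292 and shares 6.78% of its sequence words.

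Below the sensors, the transcription factor genes Cebpb and Xbp1 fell and Atf4 did not pass the test. Cebpb (ENSMUSG00000056501, chromosome 2, 167688915 to 167690418) encodes C/EBPβ, a dimer partner of ATF4 and CHOP. Its normalized counts read 2322, 2024 and 2144 with PBS against 1533, 1529 and 1515 with D-gal. The groups were far apart and the D-gal libraries nearly equal. The means were 2163 ± 150.3 and 1525 ± 9.62 (SD, n = 3), and Cebpb fell by 0.50 on the log2 scale (SE 0.05, edgeR adjusted p = 0.0002645). It overlaps Tmem189 and shares 19.6% of its sequence words, so its counts are uncertain to that extent.

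Xbp1, which IRE1 splices and which is itself a target of ATF6, had 1290 to 1315 normalized counts in the control group and 953 to 989 in the D-gal group. Its log2 fold change was -0.43 (SE 0.04, edgeR adjusted p = 0.000178, the smallest p of the 38 members), and no other annotated gene overlaps it. The messenger RNA of Xbp1 fell and those of Atf6 and Ern1 rose, while the splicing of Xbp1 and the cutting of ATF6 were not measured. Atf4 had 5425 to 5578 normalized counts in the control group and 5771 to 5830 in the D-gal group. The groups did not overlap, but the difference was 5.76% of the control level, a log2 fold change of 0.08 (interval 0.02 to 0.15, adjusted p = 0.0577). Ppp1r15a (GADD34), the inducible subunit that directs the phosphatase to eIF2, had 560, 801 and 531 normalized counts with PBS against 708, 822 and 899 with D-gal. Its groups overlapped through control replicate 2, with a log2 fold change of 0.36 (SE 0.16, edgeR adjusted p = 0.120), and without that library the value was 0.57 (adjusted p = 0.00854). Ppp1r15a overlaps Tulp2 on the opposite strand. Ppp1r15b, the constitutive subunit, had a value of -0.07 (interval -0.19 to 0.05), overlaps Gm26616 and shares 11.2% of its sequence words.

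The ATF4 targets were then set beside the XBP1 and ATF6 targets, without a test over the lists, since their members were chosen with results of these data known. Of the 12 ATF4 targets, 2 rose and 5 fell at the adjusted p, and their median log2 fold change was -0.09, with a range of -0.84 to 0.96. Of the 17 XBP1 and ATF6 targets, 0 rose and 5 fell, with a median of -0.04 and a range of -0.47 to 0.16. The median size of the change, whatever its sign, was 0.25 for the ATF4 targets and 0.13 for the XBP1 and ATF6 targets, beside 0.19 for all genes tested. The share called was 58.3% of the ATF4 targets and 29.4% of the XBP1 and ATF6 targets, on either side of the share over all genes given above. The 8 members with an ERSE had 0 rises, 3 falls and values of -0.33 to 0.04. The 5 members with a CARE had 1 rise, 1 fall and values of -0.84 to 0.96. The share called was 37.5% with an ERSE and 40% with a CARE, near the 34.8% of all genes tested.

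**Figure D4:**
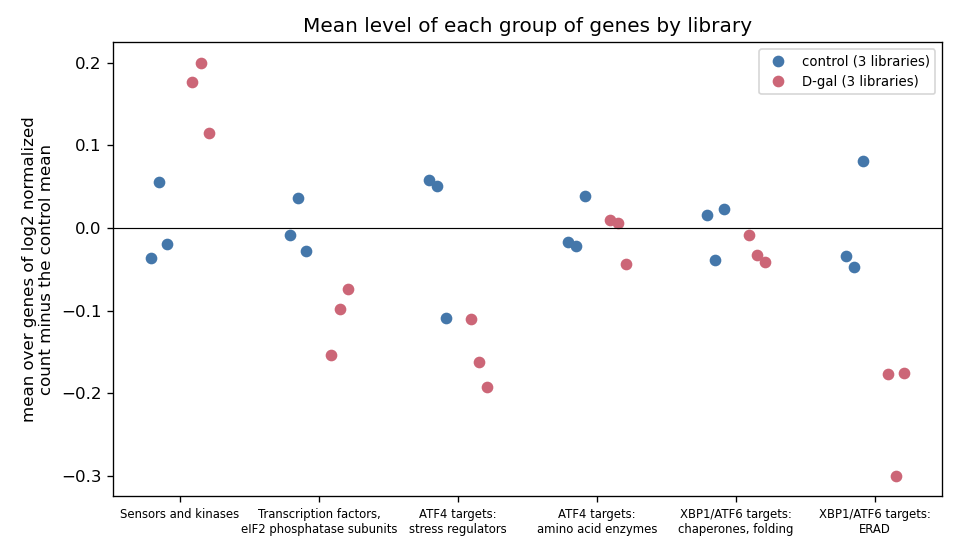
Mean over the genes of each role of the log2 normalized count minus the control mean, one point for each library. The sensors lie at 0.11 to 0.20 in the D-gal libraries, the chaperones and folding enzymes at -0.04 to -0.0087 beside -0.04 to 0.02 in the controls, and the ERAD genes at -0.30 to -0.18.

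Averaged over each list, the ATF4 targets lay at -0.06, -0.09 and -0.13 in the D-gal libraries and at 0.03, 0.02 and -0.05 in the control libraries, as the mean log2 normalized count minus the control mean. The XBP1 and ATF6 targets lay at -0.05, -0.10 and -0.07 in the D-gal libraries and at 0.0044, -0.04 and 0.04 in the control libraries. The libraries of the groups were thus separated by little on either list. The stress regulators and the amino acid enzymes differed within the ATF4 list, with D-gal means of -0.19 to -0.11 for the former, where control replicate 3 lay at -0.11, and -0.04 to 0.01 for the latter.

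The levels of the members differed far more between genes than between groups. On a scale of CPM per kilobase of merged exon, the control level was highest for Calr (489) and Hsp90b1 (482), followed by Pdia3 (289), Canx (202), Atf4 (139), Pdia4 (137) and Hspa5 (127). Of the stress regulators, Chac1, Trib3, Nupr1 and Gdf15 were low, with control levels of 5.68, 5.82, 8.23 and 9.10. Sesn2, Ddit3 and Atf5 stood higher at 20.2, 28.6 and 46.1. The sensor Ern1 was the lowest member at 5.65. Also low were the kinases Eif2ak3 and Eif2ak4 (6.59 and 7.14) and the folding gene Dnajb9 (8.65).

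**Figure D5:**
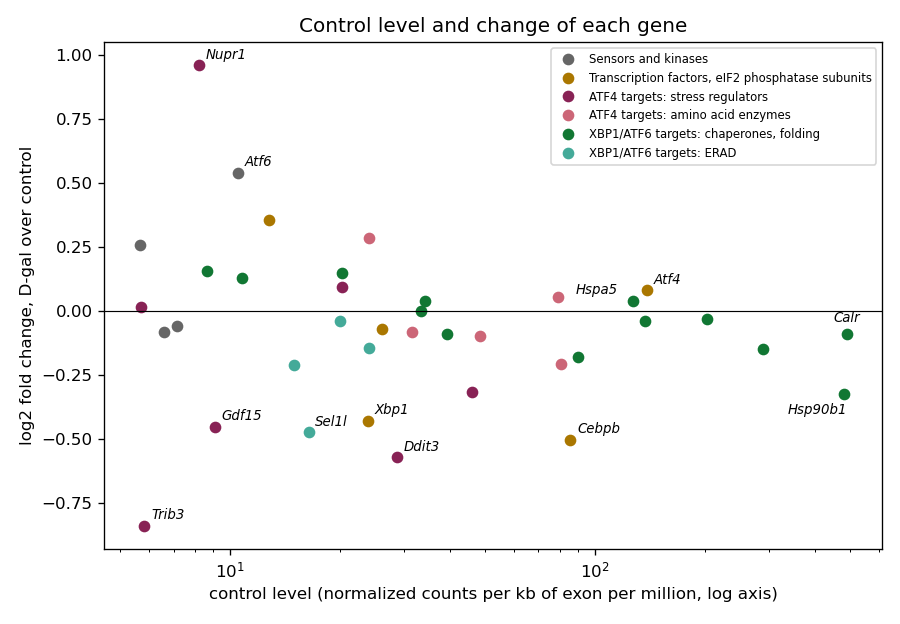
Control level of each gene per kilobase of exon (log axis) against the log2 fold change of D-gal over control, coloured by role. The abundant chaperones on the right lie between -0.33 and 0.04, and the values farthest from 0, those of Nupr1 and Trib3, belong to genes with control levels of 8.23 and 5.82.

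Other genes of the same pathways were read from the same fit, from lists written from general knowledge with earlier results of these data known. Their called shares ran from 21.4% to 58.8%, on both sides of the 34.8% over all genes tested (16.9% higher and 17.8% lower), and the counts below are to be read against that. Of 44 other ATF4 targets 41 were tested, of which 7 rose and 11 fell, with a median log2 fold change of 0.02. Those with the smallest p were Stc2, a secreted stanniocalcin (log2 fold change 1.26, edgeR adjusted p = 2.4e-05), Slc38a2, a neutral amino acid transporter (-0.27), and Xpot, the tRNA exporter (0.24, with 22.7% of its sequence words shared). Stc2 rose from 183, 197 and 156 counts in the control libraries to 324, 350 and 331 in the D-gal libraries, although the latter were sequenced less deeply. It was the 1 other ATF4 target past the study's fold change.

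Of 41 other ER chaperones and folding enzymes 39 were tested, and 3 rose and 11 fell, with a median log2 fold change of -0.12. The smallest p-values were those of Crispld2 (1.73), a secreted protein that was placed on this list but is better known as an extracellular protein than as a chaperone, Fkbp2, a prolyl isomerase (-0.50), and Ero1l, the oxidase that recharges disulfide isomerases (0.33). Of 47 other ERAD and translocation genes 45 were tested, and 9 rose and 11 fell, with a median of 0.02. They were led by Sec24d, a coat protein of vesicles that leave the ER (-0.50), Edem3, a mannosidase of ERAD (0.42), and Ssr1, a translocon subunit (-0.28). All 6 of these genes had adjusted p-values of 6.3e-05 to 0.00137 in edgeR.

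Of the 17 genes for eIF2 kinases, eIF2 and eIF2B, all tested, 6 rose and 4 fell, with a median log2 fold change of 0.10. The smallest p-values were those of Ppp1ca, a catalytic subunit of protein phosphatase 1 (-0.32, with 2 overlapping genes on the other strand and 13.4% of its sequence words shared), Impact, an inhibitor of GCN2 (0.22), and Oma1, the mitochondrial protease that relays mitochondrial stress to eIF2 kinases (0.49). Of 24 further transducers and regulators of ER stress 21 were tested, and 3 rose and 3 fell. Sesn1, a sestrin known as a p53 target, rose by 1.12 on the log2 scale (SE 0.10, edgeR adjusted p = 0.000126), whereas its relative Sesn2 among the members had 0.09. Mbtps1, the protease that makes the first cut of ATF6 in the Golgi, fell by 0.34 (adjusted p = 0.000456), and Itpr1, an ER calcium channel that overlaps 2 genes on the other strand, rose by 0.24. Of the 14 genes of the mitochondrial unfolded protein response 2 rose and 1 fell, with values of -0.14 for the chaperonin Hspd1, of which 53.1% of the sequence words are shared, and 0.27 and 0.16 for the proteases Spg7 and Afg3l2.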

How the data were processed

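RNA-seq of NOR-10 cells was analysed from the deposited table, which holds for each gene and library raw read counts, given by the authors without normalization, and FPKM values, which the authors scaled by gene length and library size. The submitters' processing notes name HISAT2 (version 2.0.4). The counting tool, its strand setting and the annotation are not given in the sources used here. The methods name a small RNA kit and the labels an RNA-seq kit. Of the members, 33 have the same start and end in GENCODE M21 (GRCm38), which was used for overlaps, merged exons and the percent of 31-base words found in other genes.

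Counts were analysed with edgeR (version 4.0.16, R 4.3.3), TMM factors, the filterByExpr filter and its quasi-likelihood test, 3 against 3 with no covariate, with Benjamini-Hochberg adjustment over 13407 genes. Normalized counts were scaled to the mean TMM library size. Standard errors were the log2 fold change over the square root of F, and 95% intervals used the test's degrees of freedom. The functions were tested on simulated data. Alternatives were DESeq2 (version 1.42.0), RLE factors, no filter, the replicate block, a minimum of 10 counts per library, each library left out, limma (version 3.58.1) on log2(FPKM + 1), thinning to the smallest total, an adjusted p under 0.01 and glmTreat against 0.5. The members and lists were chosen with earlier results of these data known. All members were named, with each library's value for those past an adjusted p of 0.05 whose absolute log2 fold change reached 0.5, and the 3 smallest p-values of each other list. Library values of Hspa5, Sel1l and Ppp1r15a were added after their spread was seen, and those of Stc2 after its change was.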

Additional observations from a re-analysis of the deposited data

How the results depend on the processing

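All 16 members called at the adjusted p kept their direction in the alternatives that give a fold change, and 12 also kept their call in all of them. Calr, Gdf15, Pdia3 and Sel1l lost it in some, and Atf4, Dnajb9, Herpud1, Hyou1, Ppp1r15a and Syvn1 passed in some, Atf4 with an adjusted p of 0.0483 with at least 10 counts in every library and 0.0108 in limma on log2(FPKM + 1). The number of members called at the adjusted p was 14 to 16 with single libraries left out, and 1 with glmTreat, which tests against a log2 fold change of 0.5. At the study's fold change it was 0 to 1 with single libraries left out. In place of that threshold glmTreat called 1, whose fitted log2 fold change of 0.96 was below 1. Both calls were of Nupr1. Over all genes, limma on log2(FPKM + 1) called 120 against 564 in edgeR, on a scale that understates the change of low genes. It gave the XBP1 and ATF6 targets a median of -0.0043, beside -0.0388 in edgeR. That fit also used no TMM factors, which were 0.9855 to 0.9905 in the control libraries and 1.008 to 1.015 in the D-gal libraries. With single libraries left out the medians were -0.13 to -0.05 for the ATF4 targets and -0.084 to -0.036 for the XBP1 and ATF6 targets. Log2 fold changes turned their sign for 5 members that did not pass the test, and the cause was not tested. With single libraries left out, that of Hspa5 ran from -0.154 (without control replicate 2) to 0.161, that of Chac1 from -0.080 (without control replicate 3; -0.021 without D-gal replicate 1) to 0.068, that of Manf from -0.096 (without D-gal replicate 1) to 0.132, and that of Dnajc3 from -0.014 to 0.015 (without control replicate 3; 0.0046 without D-gal replicate 3). Dnajc3 had 0.0016 with at least 10 counts in every library and 0.032 in limma, where Canx had 0.0042. Over all genes tested, same-numbered libraries did not deviate together (correlations -0.013, -0.0040 and 0.028). These correlations cannot decide whether same-numbered samples were handled as pairs. With the replicate block 530 genes and 16 members were called, the adjusted p of Calr was 0.0537 and that of Syvn1 0.0195. Trib3, Chac1 and Sdf2l1 were the members with the fewest counts, at most 268 in a library, and Trib3 kept its call after thinning to the smallest total.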
